A study of Drosophila melanogaster with 3 samples.

Results

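The vacuolar proton pump genes of Drosophila melanogaster were taken as all protein-coding genes of the Ensembl annotation of the dm6 genome whose symbol begins with Vha. This rule found 33 genes among the 13945 protein-coding genes on 6 chromosome arms. They fall into 14 subunit families, named by symbol. The 14 main genes are those with no copy number or with the ending -1 or -a. The other 19 are numbered or lettered paralogs, and VhaAC45RP was counted among them. This split rests on symbols alone. For Vha68, Vha100 and VhaM9.7 another copy may be the main one, so an exchanged assignment is also given. Occupancy was measured by chromatin immunoprecipitation followed by sequencing (ChIP-seq) of CG8159, a predicted zinc finger protein. The flies were 1 transgenic line that carries CG8159 joined at its C terminus to green fluorescent protein (GFP), and the sample description gives an antibody against GFP, whereas the antibody label names CG8159. The material was whole pupae of 24 hours, males and females pooled, with sonicated chromatin. There were 3 biological replicates of this line, all in 1 group with no second condition. Whole pupae mix all cell types, so occupancy in few cells and weak occupancy in many cannot be told apart.

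The vacuolar ATPase is a rotary proton pump. Its peripheral V1 sector hydrolyses ATP and turns a central shaft, and its membrane Vo sector carries protons across the membrane as the proteolipid ring rotates. The pump acidifies lysosomes, endosomes and secretory vesicles, and in insects it also energises transport across epithelia such as the Malpighian tubule. The fly factor Mitf, the homologue of mammalian TFEB, is known to regulate genes of this pump.

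The sequences below show the DNA at occupied pump promoters of several kinds and at 2 paralog promoters with no peak in any list, for comparison. Coordinates are in dm6, all sequences are from the release 6 reference genome and are written 5′ to 3′ on the strand of the pump gene. They were chosen after the values were seen. Capitals mark matches to the searched motifs on either strand, here TATAAA (written as TTTATA on the other strand) or GAGAG, and sequences in lower case throughout hold none of the 6 motifs searched. The first is the stretch around the summit between Vha68-1 and mTor, at chr2L:13004161-13004361 on the minus strand.
Vha68-1: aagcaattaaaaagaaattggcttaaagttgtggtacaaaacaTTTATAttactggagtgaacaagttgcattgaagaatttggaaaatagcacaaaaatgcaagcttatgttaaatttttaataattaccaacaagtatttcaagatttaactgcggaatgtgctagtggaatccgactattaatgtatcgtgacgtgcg
The next is the stretch just upstream of the Vha13 start at chr3R:19644387-19644486, minus strand, inside the occupied peak.
Vha13: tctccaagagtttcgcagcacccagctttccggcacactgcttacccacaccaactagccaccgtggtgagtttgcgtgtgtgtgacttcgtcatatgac
The stretch upstream of the VhaM9.7-c start, at chr3L:4186866-4186965 on the minus strand, contains the summit.
VhaM9.7-c: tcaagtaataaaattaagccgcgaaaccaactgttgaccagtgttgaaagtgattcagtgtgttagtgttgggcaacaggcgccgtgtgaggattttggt
For Vha16-5 the summit lies beside the start of CG12299, and the stretch next to that start is at chr2L:10737245-10737344 on the minus strand.
Vha16-5: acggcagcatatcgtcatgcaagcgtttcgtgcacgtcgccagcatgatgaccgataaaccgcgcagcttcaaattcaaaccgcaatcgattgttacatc
For Vha100-2 the stretch upstream of its distal start, at chr3R:18399170-18399269 on the minus strand, lies under the weaker of its peaks.
Vha100-2: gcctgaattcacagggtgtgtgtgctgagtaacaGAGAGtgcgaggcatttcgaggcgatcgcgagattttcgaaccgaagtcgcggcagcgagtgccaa
The 2 unoccupied paralogs are Vha68-3, at chr2L:12978686-12978785, and VhaM9.7-b, at chr3L:21539762-21539861, both on the plus strand.
Vha68-3: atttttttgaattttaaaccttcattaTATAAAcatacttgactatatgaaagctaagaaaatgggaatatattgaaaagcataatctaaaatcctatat
VhaM9.7-b: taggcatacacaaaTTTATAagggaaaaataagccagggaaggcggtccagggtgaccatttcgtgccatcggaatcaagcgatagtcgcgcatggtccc
The AT content of these upstream stretches was 46.0% for Vha13, 56.0% for VhaM9.7-c, 44.0% for Vha100-2, 79.0% for Vha68-3 and 50% for VhaM9.7-b. The stretch shown for Vha16-5 was 50% AT. The Vha68-1 stretch around the summit, 201 bp long against 100 bp for the others, was 68.7% AT. Among these few chosen stretches the values of occupied and unoccupied genes overlapped, which does not speak for other promoters.

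Peaks came as 5 lists deposited by the authors: 1 per replicate and 1 on pooled replicates, each of 30000 peaks, and 1 of 10239 peaks that passed an irreproducible discovery rate (IDR) threshold, a filter on how well peak ranks repeat between replicates. The IDR peaks were the 10239 pooled peaks of highest signal, with a lowest signal of 246. Signal is the peak value as deposited, and its scale differed between lists, so it is compared within a list only, and rank 1 is the highest signal of a list. Each replicate list was also limited to its strongest 10239 peaks to match the length of the IDR list. A gene was called occupied when the summit, the base of highest signal in a peak, lay within 500 bp of any annotated start site of that gene. The lists of 30000 peaks also hold peaks of low significance, so a gene called occupied only there need not be bound. For example, the deposited −log10 q, higher for more significant peaks, was 0.70 at VhaPPA1-1 in replicate 2 and 0.40 at Vha100-3 in replicate 3. No read numbers were used here, and the depth behind the peaks is unknown.

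In the IDR list 6 of the 33 pump genes were occupied (18.2%), against 22.9% of all protein-coding genes. These were Vha13, Vha16-1 and Vha68-1 among the 14 main genes (21.4%), and Vha100-2, Vha16-5 and VhaM9.7-c among the 19 paralogs (15.8%). The 6 genes encode subunits A and G of V1 and subunits a, c and e of Vo. By sector, 2 of 13 V1 genes, 4 of 18 Vo genes and 0 of 2 accessory genes were occupied. The pump genes as a group were thus not occupied more often than protein-coding genes at large in this list. The c ring family, Vha16, was the one family with more than 1 occupied gene, 2 of its 5. That count rests on Vha16-5, which was not occupied at a distance of 250 bp or by the nearest start only.

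**Figure D1:**
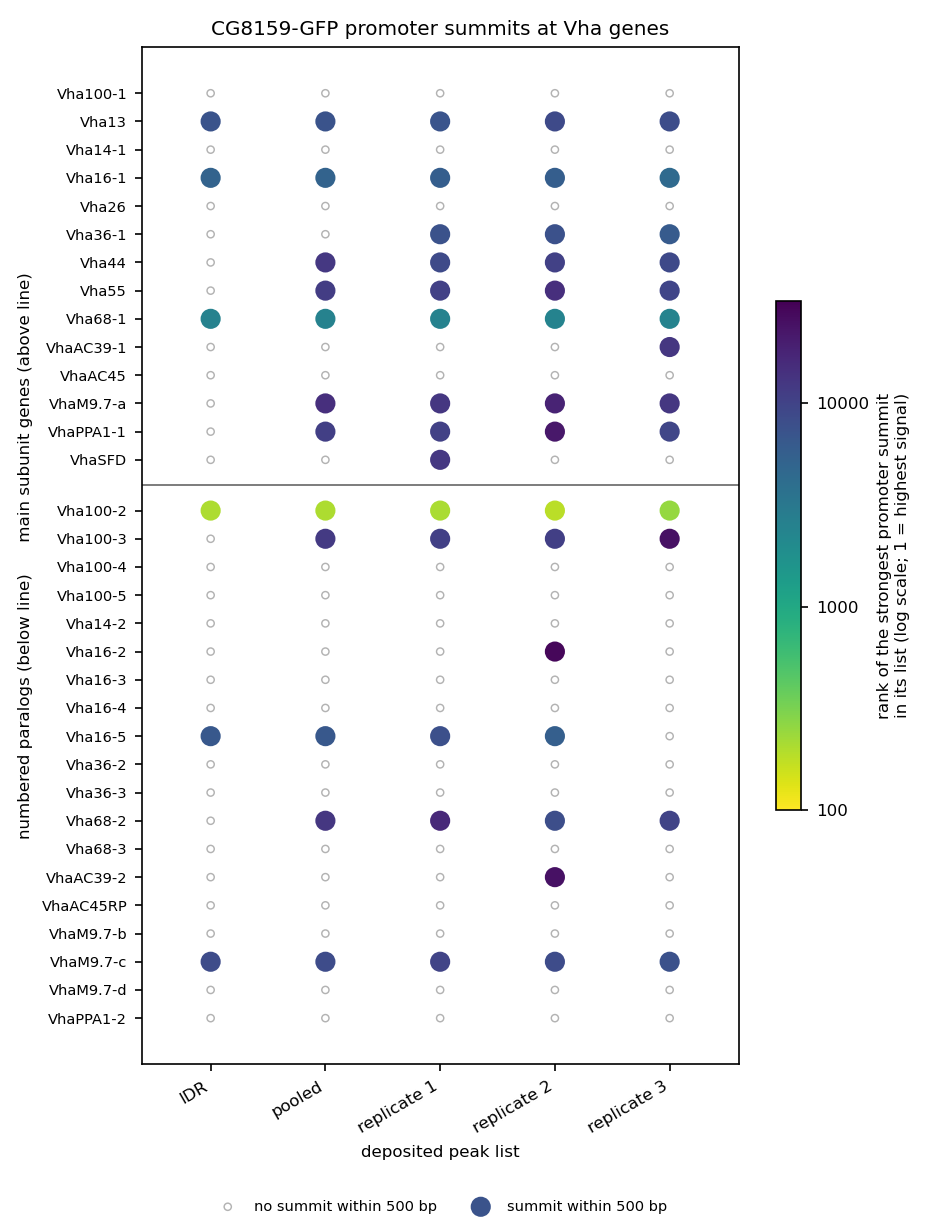
Each of the 33 pump genes (down the page, main genes above the line) against the IDR, pooled and replicate 1 to 3 lists (across), with filled points where a summit lay within 500 bp of a start site, coloured by the rank of the strongest one in its list (log scale). The pooled column has 7 filled points for main genes and 5 for paralogs, and 16 genes have none in any column.

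Among the V1 genes, Vha68-1 encodes subunit A, the catalytic subunit that binds and hydrolyses ATP. Its IDR peak (2L, 13004154 to 13004370) had its summit at 13004261, 154 bp upstream of the start, with a signal of 1061 and rank 2456. The summits in replicates 1, 2 and 3 lay 178, 175 and 162 bp upstream, with signals of 441, 310 and 336 and ranks of 2451, 2392 and 2385. This was the second strongest occupied pump promoter, and its summits stayed within 16 bp of each other. The same summit lay 219 bp upstream of mTor, on the opposite strand, which encodes the nutrient-sensing kinase that acts at the lysosome surface. The summit was in intergenic sequence, so the peak belongs to both promoters by this rule.

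Vha13 encodes subunit G, part of the peripheral stalk of V1. Its IDR peak (3R, 19644139 to 19644554) had its summit at 19644347, 39 bp downstream of the start and inside the 5′ UTR, with a signal of 361 and rank 7294. The replicate summits lay 58, 37 and 39 bp downstream, with signals of 162, 90.0 and 98.5 and ranks of 7129, 8641 and 8237 in replicates 1, 2 and 3. The ranks of Vha13 were thus in the weaker part of the IDR list in every replicate, while the position varied by 21 bp.

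Of the Vo genes, Vha16-1 encodes the c subunit that forms most of the proteolipid ring. Its IDR peak (2R, 6633006 to 6633421) had its summit at 6633214 in intergenic sequence, 124 bp upstream of one of its 2 start sites, with a signal of 522 and rank 5158. The replicate summits lay 124, 110 and 129 bp upstream, with signals of 199, 137 and 190 and ranks of 5795, 5802 and 4419. Replicate 3 ranked this peak highest, and the summits stayed within 19 bp. A second, weaker summit at the other start site was in the pooled list at rank 14116, 59 bp upstream, and in each replicate, and was not in the IDR list.

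The paralog Vha100-2, a copy of the a subunit that forms the proton path beside the ring, carried the strongest pump promoter peak. Its IDR peak (3R, 18397000 to 18397558) had its summit at 18397239, 311 bp upstream of its proximal start, with a signal of 4539 and rank 204. The replicate summits lay 323, 300 and 299 bp upstream, with signals of 1812, 1405 and 1319 and ranks of 208, 180 and 251. The peak was therefore in the top part of every list, and its summits stayed within 24 bp. It lay in the 5′ UTR of Vti1b, a SNARE gene of vesicle fusion on the opposite strand, 244 bp downstream of the Vti1b start and nearer to it than to Vha100-2. At the distal start of Vha100-2 a weak IDR peak (18398921 to 18399336) had its summit 40 bp downstream, in its 5′ UTR, with a signal of 262 and rank 9690, and was overlapped by the strongest peaks of 1 replicate. The span of Vha100-2 held 4 IDR summits in all. That is more than any other pump gene, since Vha13 and Vha16-1 held 1 each and the other 30 held none.

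Vha16-5 is a paralog of the c ring subunit. Its IDR peak (2L, 10737152 to 10737567) had its summit at 10737360, 317 bp upstream of the start, with a signal of 398 and rank 6659. The summits in replicates 1 and 2 lay 348 and 311 bp upstream, with signals of 149 and 141 and ranks of 7684 and 5657. In replicate 3 the nearest summit lay 854 bp away, so Vha16-5 was the one IDR-occupied pump gene without a promoter summit in every replicate. The summit lay in the 5′ UTR of CG12299, 15 bp downstream of the start of that gene on the opposite strand.

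VhaM9.7-c is a paralog of the small membrane subunit e. Its IDR peak (3L, 4186704 to 4187119) had its summit at 4186912, 47 bp upstream of the start, with a signal of 307 and rank 8429. The replicate summits lay 58 and 2 bp upstream and 9 bp downstream, with signals of 113, 92.8 and 108 and ranks of 9857, 8393 and 7599. Here the ranks were in the lower part of the strongest 10239 peaks in all 3 replicates, and the position varied by 67 bp. The summit lies within the spans of CG18675 and Teh2 but outside their exons.

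**Figure D2:**
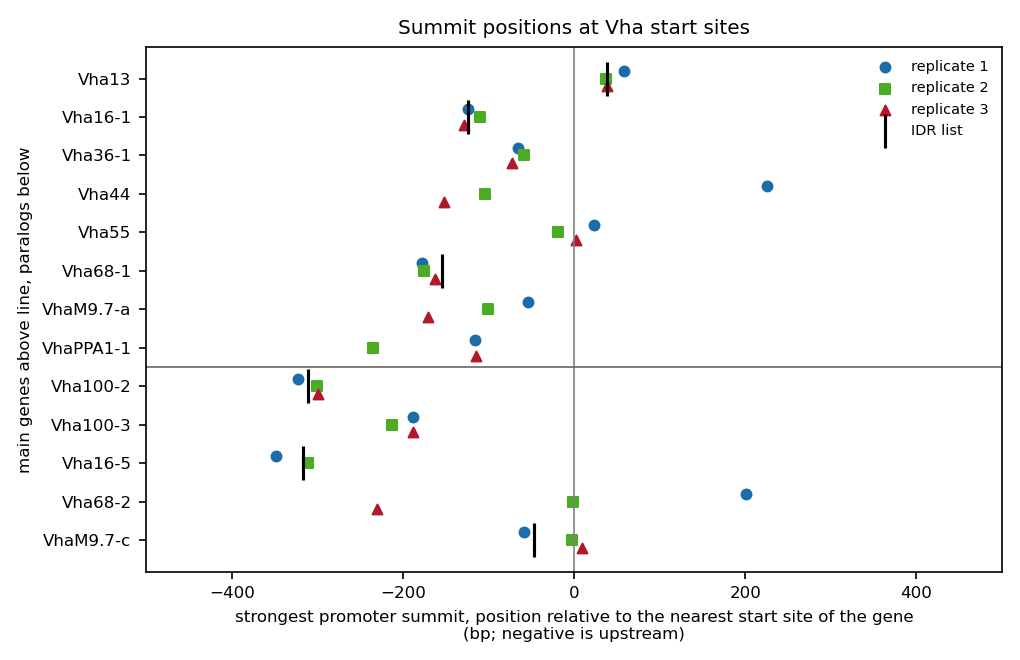
Position of the strongest promoter summit in each replicate (points, bp from the nearest start site of the gene, negative upstream), with the IDR summit as a tick, for the 13 pump genes with a promoter summit in at least 2 replicates. Vha36-1 spans 13 bp and Vha68-1 16 bp, while Vha68-2 runs between 230 bp upstream and 201 bp downstream of its several start sites.

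The other main genes ranked lower or were found in fewer lists. Vha36-1, which encodes subunit D of the central shaft, had a summit in the strongest peaks of all 3 replicates and none in the IDR or pooled list. Its summits lay 65, 59 and 72 bp upstream of the start (2R, 15541435), with signals of 153, 104 and 135 and ranks of 7494, 7511 and 6179. CG8187, on the opposite strand, starts 72 bp upstream of Vha36-1. All 3 summits were nearer to the CG8187 start, so these peaks belong to both promoters by this rule. The nearest pooled summit was 6078 bp from the Vha36-1 start and the nearest IDR summit 24537 bp from it. Of the 8389 strongest summits of replicate 1 that had one of replicate 2 and one of replicate 3 within 300 bp, 20 (0.238%) had no pooled summit within 500 bp, and the Vha36-1 summit was among them. Of the 2577 protein-coding genes occupied in the strongest peaks of all 3 replicates, 19 (0.737%) were unoccupied in the pooled list. Why the pooled list has no peak there was not tested.

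VhaPPA1-1, Vha55, Vha44 and VhaM9.7-a were occupied in the pooled list and in each full replicate list, but were below the IDR range. VhaPPA1-1 encodes the c″ subunit of the ring and had a pooled summit 117 bp upstream with a signal of 229 and rank 10887, just outside the IDR list. Its ranks in replicates 1, 2 and 3 were 10455, 21926 and 9424, so replicate 2 placed it far lower than the others. Vha55 encodes subunit B, the non-catalytic nucleotide-binding subunit, and had a pooled summit 40 bp downstream with a signal of 219 and rank 11304. Its replicate ranks were 10447, 14559 and 9720. Both genes thus entered the strongest peaks of replicate 3 only.

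Vha44 encodes subunit C, which links the stalks of V1 to Vo. It had a pooled summit 99 bp upstream with a signal of 193 and rank 12575, and replicate ranks of 8618, 10295 and 8804. Hmgs, on the opposite strand, starts 123 bp upstream of Vha44, so the pooled summit was nearer to Hmgs. The strongest summit of replicate 1 lay 226 bp downstream of a Vha44 start. Those of replicates 2 and 3 lay 104 and 152 bp upstream, so the replicates did not share 1 position. VhaM9.7-a, counted by its symbol as the main gene for subunit e, had a pooled summit 147 bp upstream with a signal of 158 and rank 14674. CG11586, on the opposite strand, starts 235 bp upstream of VhaM9.7-a, so this summit too was nearer to the neighbour. The VhaM9.7-a ranks in the replicates were 12730, 18385 and 12858. VhaSFD, which encodes the regulatory subunit H, had a summit only in replicate 1, 42 bp upstream at rank 12413. VhaAC39-1, which encodes subunit d between shaft and ring, had one only in replicate 3, 94 bp downstream at rank 12772. These single-replicate summits lay outside the strongest 10239 peaks of their lists.

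Among the paralogs outside the IDR list, Vha68-2, another copy of catalytic subunit A, had 5 annotated start sites and 3 pooled summits near them, the strongest 198 bp upstream with a signal of 190 and rank 12727. Its best ranks in replicates 1, 2 and 3 were 16188, 8056 and 9842, so it was in the strongest peaks of replicates 2 and 3. Vha100-3, an a subunit copy, had a pooled summit 174 bp upstream with a signal of 206 and rank 11912, and replicate ranks of 10744, 10754 and 24684. It was in no list of strongest peaks. Vha16-2, a c subunit copy, and VhaAC39-2, a d subunit copy, each had a summit only in replicate 2, 210 bp downstream at rank 28388 and 134 bp upstream at rank 24457. Both were in the weaker part of the 30000 peaks of that list, Vha16-2 near its end. Their −log10 q was 0.363 and 0.528, so these 2 are weak calls.

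No list had a promoter summit at 16 of the 33 pump genes (48.5%), a share near the 51.8% of all protein-coding genes without one in any list. These were 4 of 14 main genes (28.6%), Vha100-1 (subunit a), Vha14-1 (subunit F of the shaft), Vha26 (subunit E of the peripheral stalk) and VhaAC45 (an accessory membrane glycoprotein), and 12 of 19 paralogs (63.2%). The paralogs were Vha100-4, Vha100-5, Vha14-2, Vha16-3, Vha16-4, Vha36-2, Vha36-3, Vha68-3, VhaAC45RP, VhaM9.7-b, VhaM9.7-d and VhaPPA1-2. Their distance to the nearest IDR summit ranged between 891 and 65822 bp. Vha14-1 (891 bp) and Vha36-3 (1758 bp) were nearest, and Vha16-4 (31919 bp) and Vha100-5 (65822 bp) were farthest. The summit beside Vha14-1 was in all 5 lists, between 882 and 892 bp from the start, so it lay outside the promoter distance in each. Of the IDR summits inside that distance, the farthest from a pump start were those of Vha16-5 (317 bp) and Vha100-2 (311 bp, beside its other summit at 40 bp).

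Across the 33 genes, the median distance to the nearest IDR summit was 3012 bp for main genes, 4713 bp for paralogs and 4739 bp for all protein-coding genes. Within 1000 bp lay an IDR summit for 4 of 14 main genes (28.6%), 3 of 19 paralogs (15.8%) and 27.4% of all protein-coding genes. By the share within 1000 bp the main genes were close to the annotation at large.

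**Figure D3:**
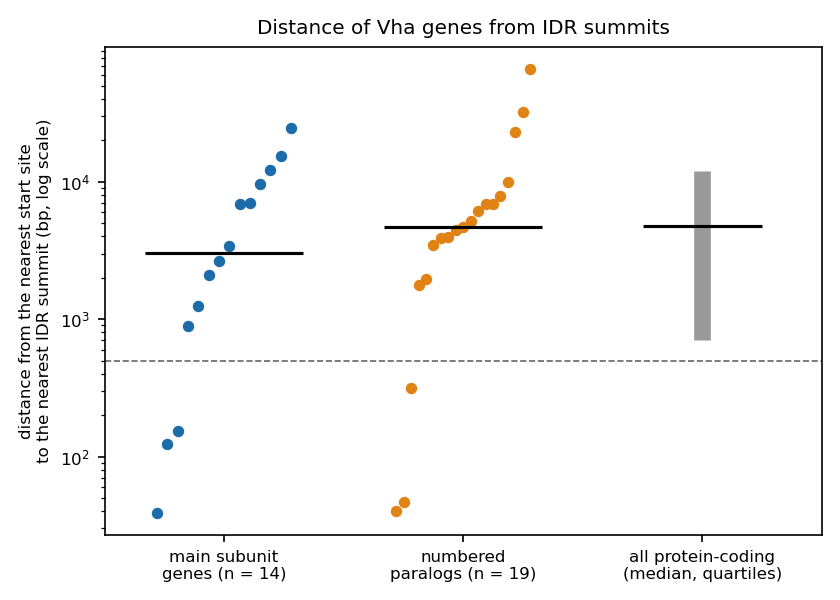
Distance of each pump gene's start sites to the nearest IDR summit (log axis, bp), main genes and paralogs as points with a median line, and all protein-coding genes as median and quartiles, with a dashed line at 500 bp. Main genes have a median of 3012 bp, paralogs 4713 bp and all protein-coding genes 4739 bp, and the points of both groups overlap widely.

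The main genes and paralogs were next compared list by list. In the pooled list 7 of 14 main genes (50%) and 5 of 19 paralogs (26.3%) were occupied, together 12 of 33 (36.4%), against 37.1% of all protein-coding genes. In the strongest peaks of replicates 1, 2 and 3, the main genes numbered 5, 4 and 7 and the paralogs 3, 4 and 3, against 24.8%, 23.7% and 22.7% of all protein-coding genes. As means over replicates these were 38.1% ± 10.9 of main genes, 17.5% ± 3.04 of paralogs and 23.7% ± 1.03 of all protein-coding genes (SD, n = 3). In the full replicate lists, 9, 8 and 9 main genes and 5, 7 and 4 paralogs were occupied, against 40.7%, 39.7% and 36.9% of all protein-coding genes. These means were 61.9% ± 4.12, 28.1% ± 8.04 and 39.1% ± 1.96 for main genes, paralogs and all protein-coding genes (SD, n = 3).

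The main share was above the paralog share in all 8 lists. These lists are not independent, since each strongest list is part of its full list and the IDR list is part of the pooled list. The pooled list comes from the same 3 replicates. The difference, main minus paralog, was 5.64 percentage points in the IDR list and 23.7 in the pooled list. Over replicates it averaged 20.6 ± 13.4 points in the strongest peaks, with a lowest value of 7.52 in replicate 2, and 33.8 ± 12.0 points in the full lists (SD, n = 3). The spread covers separate collections of 1 line for the same genes and not the choice of genes, and 1 gene is 7.14% of the main genes, so no test was made. Occupancy in the strongest peaks of all 3 replicates was found for 4 main genes (28.6%), namely Vha13, Vha16-1, Vha36-1 and Vha68-1, for 2 paralogs (10.5%), Vha100-2 and VhaM9.7-c, and for 18.5% of all protein-coding genes. In all 3 full lists the shares were 57.1% of main genes, 21.1% of paralogs and 30.5% of all protein-coding genes.

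**Figure D4:**
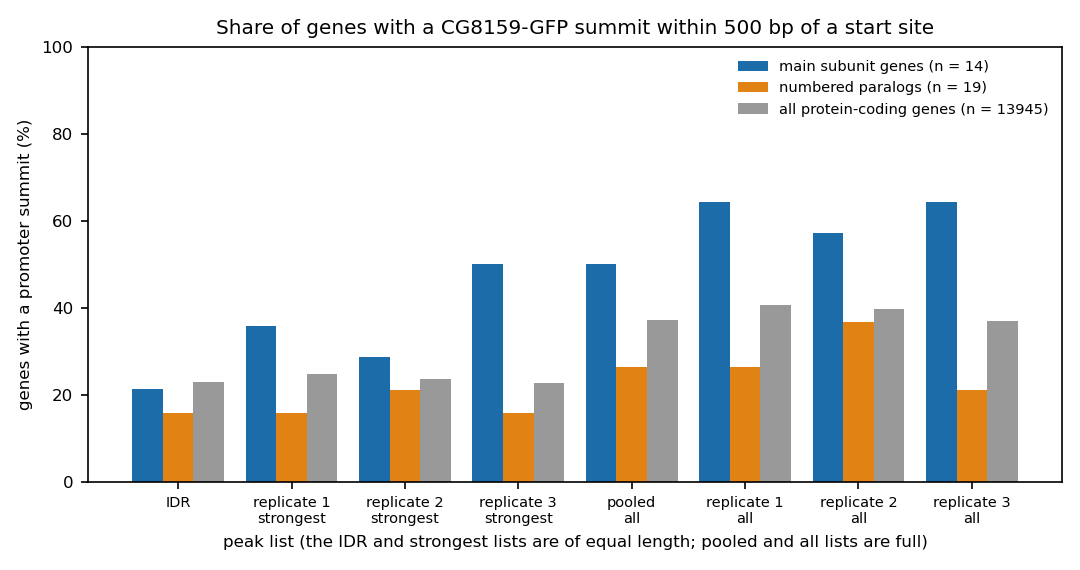
Percent of main genes, paralogs and all protein-coding genes (bars, left to right in each set) with a promoter summit in the IDR, pooled, strongest replicate and full replicate lists. Main genes are above paralogs in all 8 lists, by 5.64 percentage points in the IDR list and by more elsewhere. The 8 lists overlap and come from the same 3 replicates.

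The groups also differed in their neighbours. A divergent neighbour, meaning an oppositely transcribed gene that starts no more than 500 bp upstream, was found for 9 of 14 main genes (64.3%), 4 of 19 paralogs (21.1%) and 29.6% of all protein-coding genes. In the IDR list 36.1% of all protein-coding genes with such a neighbour were occupied, and 17.3% of those without one. Of the main genes, 1 of 9 with and 2 of 5 without a divergent neighbour were occupied in the IDR list, and of the paralogs 2 of 4 with and 1 of 15 without. In the strongest peaks of replicates 1, 2 and 3, main genes with such a neighbour were at 33.3%, 22.2% and 44.4%, and paralogs with one at 50%, 50% and 25%. All protein-coding genes with one were at 40.6%, 37.9% and 36.2%. In the full replicate lists main genes with such a neighbour were at 55.6% in each replicate, and paralogs with one at 50%, 50% and 25%. There all protein-coding genes with one were at 56.2%, 53.3% and 47.9%. Of genes with such a neighbour, the pooled list had 4 of 9 main genes (44.4%) and 2 of 4 paralogs (50%). The share of all protein-coding genes with one was 48.9% there. Among these very few genes main genes were below paralogs in the IDR and pooled lists and in the strongest peaks of replicates 1 and 2. They were above paralogs in the strongest peaks of replicate 3 and in all 3 full replicate lists. Among genes without one, in the strongest peaks, main genes were at 40.0%, 40.0% and 60.0% and paralogs at 6.67%, 13.3% and 13.3%. All protein-coding genes without one were at 18.2%, 17.7% and 17.1%. The part of divergent neighbours in the difference was not tested.

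The 7 IDR summits at pump start sites were placed from the start of the pump gene. Of these, 5 (71.4%) lay upstream, with a median position 124 bp upstream. The 2904 IDR summits at protein-coding start sites were placed from the nearest protein-coding start of any gene. Of those, 76.4% lay upstream, with a median 127 bp upstream. These measures are unlike, so the positions cannot be set side by side. The upstream summits of Vha100-2 and Vha16-5 lay nearer to Vti1b and CG12299, 244 and 15 bp downstream of those starts. The median signal of the 7 pump summits was 398 against 558 for the 2904 summits. Of the 6 occupied genes, Vha68-1 and Vha100-2 had a summit in the stronger 5119 peaks of the IDR list. Those are 2 of 33 pump genes, against 13.5% of all protein-coding genes occupied by these stronger peaks. Base composition around the summit stood lower: in windows of 101 bp the AT content had a median of 56.4% over the 7 pump summits and 68.3% over the 2904. Vha68-1, at 73.3%, was above that value, and the other windows held between 48.5% and 60.4%. Over the whole 300-bp promoters, 250 bp before to 50 bp after a start, the median AT content was 62.8% for main genes, 64.7% for paralogs and 62.0% for all protein-coding genes, so the pump promoters did not stand apart in that window.

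Motifs were searched on both strands in the same 300-bp windows. The E-box CACGTG, the core bound by Mitf, was in 1 of 14 main promoters and 2 of 19 paralog promoters, together 9.09% of pump genes, against 4.20% of all protein-coding genes. Those promoters were Vha44, VhaAC45RP and VhaM9.7-d, none of which was occupied in the IDR list. That list covered 22.9% of all protein-coding genes, and 3 promoters are too few to set against this share. Vha44 was occupied in the pooled list and in the strongest peaks of replicates 1 and 3. The related E-box CATGTG was in 6 pump promoters (18.2%), against 9.7% at large. The DRE, TATCGATA, was in Vha55 and VhaSFD alone (6.06%), against 9.36% at large. Counts of the GAGA motif GAGAG, 9 pump genes (27.3% against 29.7%), and of the TATA motif TATAAA, 17 genes (51.5% against 45.8%), were near those of the annotation. The E-box CAGCTG, used by other helix-loop-helix proteins, was in 8 (24.2%), against 17.7%. In the 101-bp summit windows, 1 motif occurred at pump genes, GAGAG, in both windows of Vha100-2, and in 11.6% of the 2904 promoter summits at large.

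The fly genes that work with the pump, or in the acidic compartment it maintains, were taken as a list of 25, of which 8 (32.0%) were occupied in the IDR list, against 22.9% of all protein-coding genes. They were the hexosaminidase genes Hexo2, with a signal of 2161, and Hexo1 (823), the cathepsin protease genes CtsB (709), CtsL1 (518) and CtsF (361), the lysosomal transporter gene Cln7 (537), the thioesterase gene Ppt1 (488) and the lysosomal membrane protein gene Lamp1 (331). Their summits lay between 214 bp upstream (Hexo2) and 71 bp downstream (CtsF) of the start. In the pooled list 15 of 25 were occupied (60.0%), against 37.1% of all protein-coding genes. In the strongest peaks of replicates 1, 2 and 3 the counts were 11, 9 and 9 (44.0%, 36.0% and 36.0%), against 24.8%, 23.7% and 22.7% of all protein-coding genes. Mitf was occupied in the pooled list and in the full list of replicate 1. Of the genes closest to the pump, Rbcn-3A, which encodes a subunit of the complex that assembles V1 with Vo, was occupied in the pooled list and the strongest peaks of replicate 1, and its partner gene Rbcn-3B in the strongest peaks of replicates 1 and 2 but not in the pooled list. ATP6AP2, an accessory subunit gene, was occupied in no list.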

How the data were processed

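ChIP-seq of CG8159-GFP in whole pupae gave 3 replicates in 1 group. The authors deposited peak lists on dm6, per the file headers. The deposited signal is a peak's value on a scale of its own list, and was used only to rank and describe peaks within that list. The deposited −log10 q-value was at its maximum in 79.0% of IDR peaks and was used only to describe peaks. The aligner is, like the peak caller, not given in the sources used here, and no read numbers were used. All IDR peaks were the 10239 pooled peaks of highest signal.

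Start sites came from Ensembl release 115 and sequences from the release 6 reference genome. A promoter summit lay within 500 bp of any start site. No test was made: counts are set beside the percent of all 13945 protein-coding genes. Full values are given for pump genes occupied in the IDR list, occupied lists for the others, and distances for those with none. Lysosomal genes are named where occupied, and neighbours where they share a summit. Members and lists were chosen with earlier results of these data known. The assignment of summits to start sites was tested on simulated data. Tools were python 3.11.15, pandas 2.3.3, numpy 2.4.6 and matplotlib 3.10.9. Alternatives were distance, start sites, list, overlap, leaving out replicates and other main genes. Protein sequences were not used here.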

Additional observations from a re-analysis of the deposited data

How the results depend on the processing

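The IDR count of 6 pump genes (3 main genes, 3 paralogs) stayed within 1.5 times at promoter distances of 250 bp (5 genes) and 1000 bp (7), with the 5′-most start only (6), the nearest start only (5), and peaks overlapped by all 3 replicates (5). The share of all protein-coding genes at these settings was 17.7%, 27.4%, 20.1%, 17.7% and 18.3%, in that order. Vha16-5 was the gene lost at 250 bp, with the nearest start only and with overlap by all 3 replicates. Keeping IDR peaks overlapped by the strongest peaks of both other replicates when each replicate was left out gave 5 to 6 genes, with Vha16-5 lost without replicate 1 and without replicate 2. Protein-coding genes at large were then at 19.2% to 19.6%. The stronger 5119 IDR peaks gave 2 genes, 1 main and 1 paralog, and covered 13.5% of protein-coding genes. The full pooled list gave 12 (7 main, 5 paralogs). The strongest peaks of replicate 1 gave 8 genes (5 main, 3 paralogs). Those of replicate 2 gave 8 (4 main, 4 paralogs), and those of replicate 3 gave 10 (7 main, 3 paralogs). They covered 24.8%, 23.7% and 22.7% of all protein-coding genes. All peaks of replicate 1 gave 14 (9 main, 5 paralogs), of replicate 2 15 (8 main, 7 paralogs), and of replicate 3 13 (9 main). Longer lists cover more promoters at large too: 22.9% of protein-coding genes in the IDR list, 37.1% in the pooled list, and 40.7%, 39.7% and 36.9% in the full lists of replicates 1, 2 and 3. With Vha68-2, Vha100-2 and VhaM9.7-b as main genes in place of Vha68-1, Vha100-1 and VhaM9.7-a, the IDR counts were again 3 and 3, with Vha100-2 for Vha68-1 among the main genes; main minus paralog in the strongest peaks then averaged 28.8 ± 15.4 points (SD, n = 3), with 19.9 in replicate 2. With 14 and 19 genes, 1 gene moves a share by several points, and unknown depth limits what absence of a peak means. No paired analysis was possible because there was 1 group and no test.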

Other observations

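Several pump paralogs sit side by side on the same strand, and some neighbours differed in occupancy. The gaps given here run between the spans of the 2 genes, so their start sites lie farther apart than the gap. Vha100-2 and Vha100-4 lie 517 bp apart on 3R. Vha100-2 was occupied in all 5 lists and Vha100-4 in none. The Vha100-4 start is at 18389805 and the strong Vha100-2 summit at 18397239. VhaPPA1-1 and VhaPPA1-2 lie 2052 bp apart, and VhaPPA1-1 was occupied in the pooled list but not the IDR list, whereas VhaPPA1-2 was in none. Vha68-2 and Vha68-3 lie 178 bp apart, and Vha68-2 was occupied in the pooled list but not the IDR list, whereas Vha68-3 was in none. Vha16-2 and Vha16-3 lie 985 bp apart, and neither was occupied in the IDR or pooled list. Vha16-2 had only its weak summit in replicate 2, and Vha16-3 had none. The nearest pooled summit to Vha16-3 was 535 bp from its start, just outside the promoter distance.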
